A study of Mus musculus with 28 samples.

Results

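The collagen genes of the mouse were read in 28 hearts as the genes whose annotated symbol is Col, a number, a and a number. Of 18193 genes with a probe set naming 1 symbol, 42 met this rule. Since 27 of the 42 had several probe sets, the brightest of a gene, by its mean signal in the 28 hearts, stood for it. The fibrillar class held 11 genes, the basement membrane class the 6 type IV genes Col4a1 to Col4a6, and the class of other collagens 25. Total RNA from frozen heart tissue of 1 animal was hybridised to each 1-colour array, with 7 animals in each of 4 groups. These were untreated controls, controls treated with WY14643, untreated del337TR animals and del337TR animals treated with WY14643. WY14643 activates the nuclear receptor PPARalpha. The del337TR strain, written del337 in the labels of its WY14643 group, carries a deletion, in a study of resistance to thyroid hormone. The labels gave no age, sex, dose, duration or heart chamber, and neither the receptor gene that carries the deletion nor the cells that express it. The question of the design was how the strain, the activator and their combination differ in the heart.

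Collagens are proteins of the extracellular matrix whose alpha chains wind around each other into a helix. The fibrillar collagens, mainly types I and III in the heart and with type V at the core of the fibrils, form the cables between muscle cells and come mostly from cardiac fibroblasts. Type IV chains form the sheet-like network of the basement membrane that surrounds heart muscle cells and capillaries, and the pairs Col4a1 and Col4a2, Col4a3 and Col4a4, and Col4a5 and Col4a6 lie head to head on their chromosomes. The other collagens include the bead-forming type VI, the fibril-associated types XII and XIV, and type XV, which anchors the basement membrane to the matrix around it.

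The starts of a few collagen genes are shown because their signals carried the strongest relations among the hearts. Each window, from RefSeq on GRCm38.p6, runs from 250 bases before to 50 bases after an annotated start and is printed 5′ to 3′ on the gene's strand. Capitals mark promoter motifs on either strand, namely the CCAAT box, the GC box with the letters GGGCGG, and the TATA box with the letters TATAAA. The windows of Col4a1 (chr8:11312777-11313076, minus strand) and Col4a2 (chr8:11312555-11312854, plus strand) shared 78 bases. The others are Col1a2 (chr6:4505368-4505667, plus strand) and Col3a1 (chr1:45311288-45311587, plus strand), whose chains build types I and III.
Col4a1: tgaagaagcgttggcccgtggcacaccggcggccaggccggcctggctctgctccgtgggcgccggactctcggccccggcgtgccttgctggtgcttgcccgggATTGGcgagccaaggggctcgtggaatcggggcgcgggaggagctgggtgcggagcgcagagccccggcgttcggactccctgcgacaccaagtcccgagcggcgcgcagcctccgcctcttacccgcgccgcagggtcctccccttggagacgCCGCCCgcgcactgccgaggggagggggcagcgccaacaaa
Col4a2: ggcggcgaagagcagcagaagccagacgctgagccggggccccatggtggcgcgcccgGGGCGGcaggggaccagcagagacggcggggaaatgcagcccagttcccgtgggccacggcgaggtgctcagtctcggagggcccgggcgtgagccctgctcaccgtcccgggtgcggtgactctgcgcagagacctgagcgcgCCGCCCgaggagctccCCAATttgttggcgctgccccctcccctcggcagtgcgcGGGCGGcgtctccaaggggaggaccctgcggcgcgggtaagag
Col1a2: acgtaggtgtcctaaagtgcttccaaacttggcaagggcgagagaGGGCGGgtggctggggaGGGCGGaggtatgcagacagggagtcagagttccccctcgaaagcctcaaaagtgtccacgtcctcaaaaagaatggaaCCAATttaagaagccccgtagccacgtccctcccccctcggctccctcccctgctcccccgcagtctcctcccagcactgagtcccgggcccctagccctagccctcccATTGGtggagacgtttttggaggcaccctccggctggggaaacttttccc
Col3a1: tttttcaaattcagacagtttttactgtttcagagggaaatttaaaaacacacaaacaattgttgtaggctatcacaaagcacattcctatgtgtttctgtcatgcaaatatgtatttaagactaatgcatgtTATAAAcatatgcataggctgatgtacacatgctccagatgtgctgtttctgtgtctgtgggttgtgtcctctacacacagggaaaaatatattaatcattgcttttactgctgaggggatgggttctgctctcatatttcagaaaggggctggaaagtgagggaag

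The Col4a1 and Col4a2 windows had a GC content of 74.0% and 73.7%, and each held 1 CCAAT box. The GC box occurred once in the Col4a1 window and 3 times in the Col4a2 window. The Col1a2 window held the CCAAT box and the GC box 2 times each. The Col3a1 window, at 37.7% GC, held neither and had 1 TATA box. RefSeq windows were matched for 33 of the 42 genes, 36 windows in all, with a median GC content of 59.9% against 52.7% over 32851 windows. The GC box was in 61.1% of the collagen windows and 35.7% of all, the CCAAT box in 36.1% and 37.4%, and the TATA box in 13.9% and 13.6%. The half-site of nuclear receptors, AGGTCA, was in 22.2% of collagen windows and 16.3% of all windows. Its direct repeat with 1 base between the copies was in 0% of the collagen windows and 0.0396% of all, each count taking both strands. These matches describe letters in a window and no binding was measured.

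The values are scaled signals on a linear scale, without calls of detection, so signals of different genes are not compared as amounts of RNA. Array medians ran from 60.1 to 77.8, and the number of arrays limited the precision. A mean signal above 200 was taken as bright. It was exceeded by 15 collagens, which were 6 fibrillar genes (Col1a2, Col3a1, Col5a1, Col1a1, Col5a2 and Col27a1), the type IV genes Col4a1, Col4a2 and Col4a5, and 6 others (Col6a2, Col6a1, Col15a1, Col6a3, Col14a1 and Col8a1). The mean signal was below 50 for 2 fibrillar, 0 type IV and 9 other genes. Replicate 7 of each group was the array least like its group. Replicate 7 of the controls on WY14643 was the lowest of its group for Col1a1, Col1a2, Col3a1, Col5a1, Col5a2, Col4a1, Col4a2 and Col15a1. In heart tissue, fewer cells of a type and less RNA per cell cannot be told apart.

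No collagen gene passed the test in any comparison of the groups. The test was limma on log2 signals over 45037 probe sets, with Benjamini-Hochberg adjustment and a threshold of 0.05. For del337TR against control without WY14643, 0 of 42 collagens were called, where 0.00222% of the probe sets were. The count was also 0 of 42 for WY14643 in controls, WY14643 in del337TR, del337TR against control under WY14643, the strain difference in the WY14643 effect, and the averages over strains and over treatments, in each of which 0% of the probe sets were called. In the 4 comparisons of a pair of groups, some genes had signals that did not overlap between the groups, and no collagen was among them. By comparison the shares were 0.077% for the untreated strains, 0.0934% for WY14643 in controls, 0.0879% for WY14643 in del337TR and 0.132% for the strains under WY14643.

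The direction of the differences was most uniform between the strains under WY14643. There 37 of 42 collagens stood higher in del337TR than in controls, with a median log2 difference of 0.25. Of all genes 46.4% stood below 0 in this comparison and their median was 0.0208. By class, 11 of 11 fibrillar, 5 of 6 type IV and 21 of 25 other collagens were higher, with medians of 0.29, 0.0712 and 0.26. With single arrays left out these medians ran from 0.19 to 0.39, -0.022 to 0.14 and 0.18 to 0.34. All 15 bright collagens were higher, against 3391 of the 7561 genes with a mean signal above 200. When each array was centred on its median, 33 of 42 and 12 of 15 were higher, and the array medians themselves differed by 0.0806 on the log2 scale. The bright genes were read in the same hearts, so their directions are not independent of each other. The controls on WY14643 were not alike in other genes. In replicates 1, 4, 6 and 7 the myosin gene Myh7 was at 6007, 4240, 3921 and 4520. It was at 17697, 18240 and 18817 in replicates 2, 3 and 5, and at least 14677 in del337TR on WY14643. The mean log2 signal of bright fibrillar genes was 8.83, 8.97, 9.34 and 8.32 in the first set and 9.40, 9.04 and 9.17 in the second. A low Myh7 signal was not confined to this group. Replicate 7 of the untreated controls was at 3103, and the other untreated controls were at 14554 or higher. The part of the split among the controls on WY14643 in the differences was not tested. At an unadjusted p under 0.05 there were 7 collagens, or 16.7%, against 10.2% of all genes, of which 5.65% were higher. They were Col15a1, Col4a4, Col23a1, Col7a1, Col24a1, Col26a1 and Col11a1, all higher in del337TR. Among the bright collagens it was 1 of 15, or 6.67%, against 13.9% of the genes with a mean signal above 200. The count over the 42 was 3 without replicate 1 or replicate 3 of the controls on WY14643 or replicate 7 of the del337TR hearts on WY14643.

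**Figure D1:**
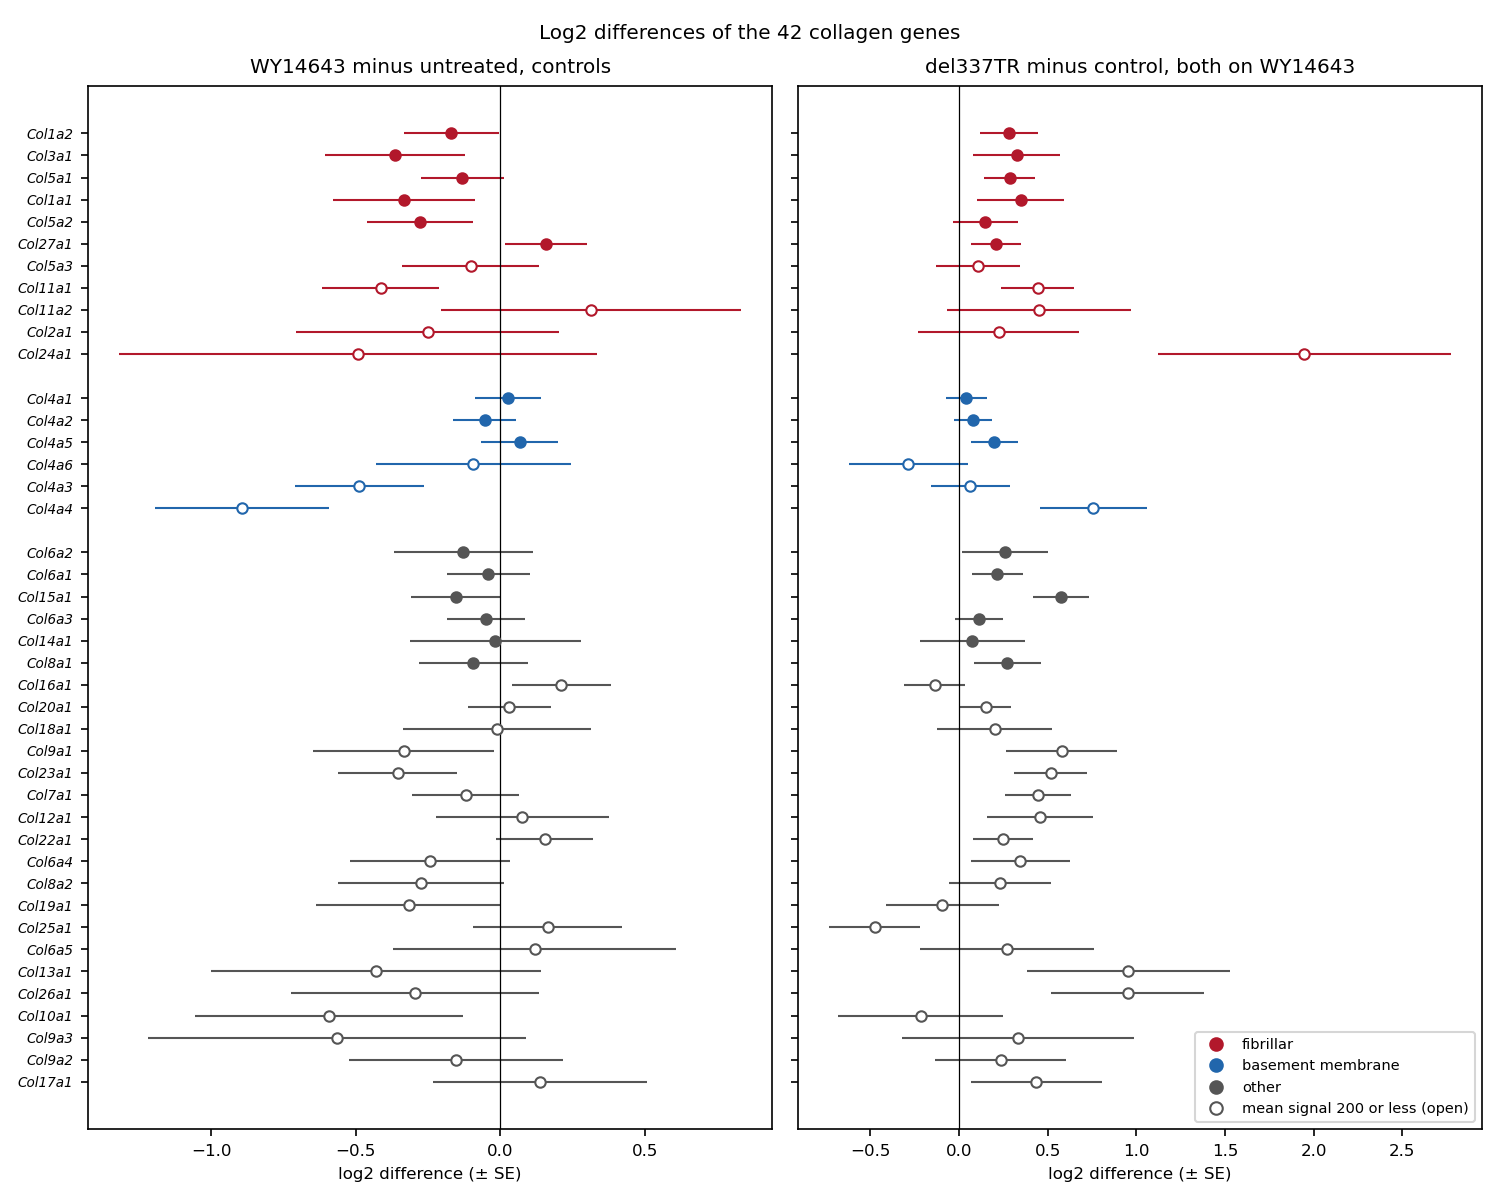
Log2 differences with limma's standard errors for the 42 collagen genes, ordered by class and mean signal, for WY14643 in controls (left) and del337TR against control under WY14643 (right). Filled points are the 15 genes with a mean signal above 200. On the right all 15 lie above 0, with Col4a1, Col14a1 and Col4a2 next to it, and no point passed the adjusted threshold.

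In the controls most collagens had lower signals with WY14643 than without it, again without a call. The log2 difference was above 0 for 11 of 42, namely 2 of 11 fibrillar, 2 of 6 type IV and 7 of 25 other genes, and for 3 of the 15 bright ones. Class medians were -0.25, -0.074 and -0.12, beside -0.0272 over all genes, of which 55.1% stood below 0. With single arrays left out the class medians ran from -0.35 to -0.10, -0.16 to 0.0583 and -0.20 to -0.0242. With each array centred, 16 of 42 and 7 of 15 were above 0, and without replicate 7 of the controls on WY14643, 14 of 42 and 7 of 15 were. The bright count was 5 without untreated control replicate 3, and 6 and 1 without replicates 1 and 2 of the controls on WY14643. At an unadjusted p under 0.05 there were 2 collagens, or 4.76%, against 7.14% of genes, of which 4.61% were lower. These were Col4a4 and Col4a3, both lower. The count was 1 without untreated control replicate 6 or without replicate 1, 3 or 5 of the controls on WY14643.

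The other comparisons gave the following values. Without WY14643, 25 of 42 collagens stood higher in del337TR than in controls, with class medians of 0.11 (fibrillar), 0.0689 (type IV) and 0.10 (other), where 49.7% of all genes stood below 0. With single arrays left out the fibrillar median ran from -0.00896 to 0.16 and that of the other collagens from -0.0194 to 0.15, so both signs turned. With the atrial score as a covariate 15 of 42 and 7 of 15 bright collagens were higher, and the median over the 42 turned from 0.11 to -0.0456. One collagen, Col17a1, was at an unadjusted p under 0.05, or 2.38% against 3.33% of genes. WY14643 in del337TR gave medians of 0.00971, -0.0379 and 0.15, with 27 of 42 higher where 51.1% of all genes stood below 0. At an unadjusted p under 0.05 were 3 collagens, or 7.14% against 5.96%, and 0 of the 15 bright ones. The WY14643 effect in del337TR minus that in controls was positive for 34 of 42 with medians of 0.20, 0.0732 and 0.13, and below 0 for 47.8% of all genes. For it 4 collagens, or 9.52%, were at an unadjusted p under 0.05, against 4.66% of genes. Of the 15 bright collagens it was 0, against 3.84% of the genes with a mean signal above 200. With each array centred on its median, 25 of 42 and 9 of 15 bright collagens were positive, the median over the 42 fell from 0.15 to 0.051, and 0 were at an unadjusted p under 0.05. The array medians themselves gave a difference of 0.0978 here. Averaged over treatments, 34 of 42 were higher in del337TR (medians 0.20, 0.0228 and 0.16), where 47.5% of all genes stood below 0. At an unadjusted p under 0.05 were 5 collagens, or 11.9% against 8.32%. Of the 15 bright ones it was 1, or 6.67% against 11.4% of the genes with a mean signal above 200. With the atrial score as a covariate 28 of 42 and 11 of 15 bright ones were higher. Averaged over strains, WY14643 gave medians of -0.0852, -0.15 and 0.0301 with 19 of 42 higher, where 53.9% of all genes stood below 0. There 1 collagen was at an unadjusted p under 0.05, or 2.38% against 8.27%. These small counts over the 42 changed with single arrays left out, to 0 to 3, 0 to 3, 1 to 4, 3 to 7 and 1 to 3 in the order given. These comparisons share groups with each other, so their values are set side by side only.

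The type I and III genes form the main fibrils of the heart. Col1a1, the alpha 1 chain of type I, had signals from 267 to 731 (median 443) in untreated controls, from 178 to 508 (median 344) in controls on WY14643, from 263 to 624 (median 352) in untreated del337TR hearts and from 210.5 to 611 (median 476) in del337TR hearts on WY14643. The groups overlapped, and the highest hearts were replicate 6 of both untreated groups. The log2 difference between strains under WY14643 was 0.35 ± 0.25 (SE, n = 7 per group), with a limma adjusted p of 0.726. In controls WY14643 gave -0.33 ± 0.25. Without replicate 7 of the controls on WY14643 these values were 0.19 and -0.18. Col1a2, which encodes the partner chain of type I, had signals from 1363 to 2098 (median 1725) in untreated controls, from 986 to 2333 (median 1596) in controls on WY14643, from 1540.1 to 2524 (median 1779.6) in untreated del337TR hearts and from 1458 to 2446 (median 1829) in del337TR hearts on WY14643. The groups overlapped, and the lowest of all hearts was replicate 7 of the controls on WY14643. Its log2 difference between strains under WY14643 was 0.28 ± 0.16 (limma adjusted p 0.648), and 0.17 without that heart.

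Col3a1, the single chain of type III, had signals from 1047 to 2244 (median 1418) in untreated controls, from 536 to 1841 (median 1245) in controls on WY14643, from 1089 to 3639.7 (median 1396) in untreated del337TR hearts and from 1181 to 1744 (median 1472) in del337TR hearts on WY14643. One untreated del337TR heart, replicate 6, stood far above the others of its group at 3639.7, and the next was at 1935. Its lowest heart of the 28, at 536, was replicate 7 of the controls on WY14643. Its differences were 0.32 ± 0.24 between strains under WY14643 and -0.36 ± 0.24 for WY14643 in controls, with limma adjusted p of 0.747 and 0.798. Without that heart they were 0.14 and -0.18. Type V chains, which regulate the width of type I fibrils, gave 0.29 ± 0.14 for Col5a1 and 0.15 ± 0.18 for Col5a2 between strains under WY14643, the latter 0.0087 without the same heart. Col27a1, a fibrillar collagen best known from cartilage, had means of 213 ± 30.6 (SD, n = 7) in untreated controls, 238 ± 40.6 in controls on WY14643, 238 ± 58.1 in untreated del337TR hearts and 274 ± 33.5 in del337TR on WY14643. Its difference between strains under WY14643 was 0.21 ± 0.14.

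**Figure D2:**
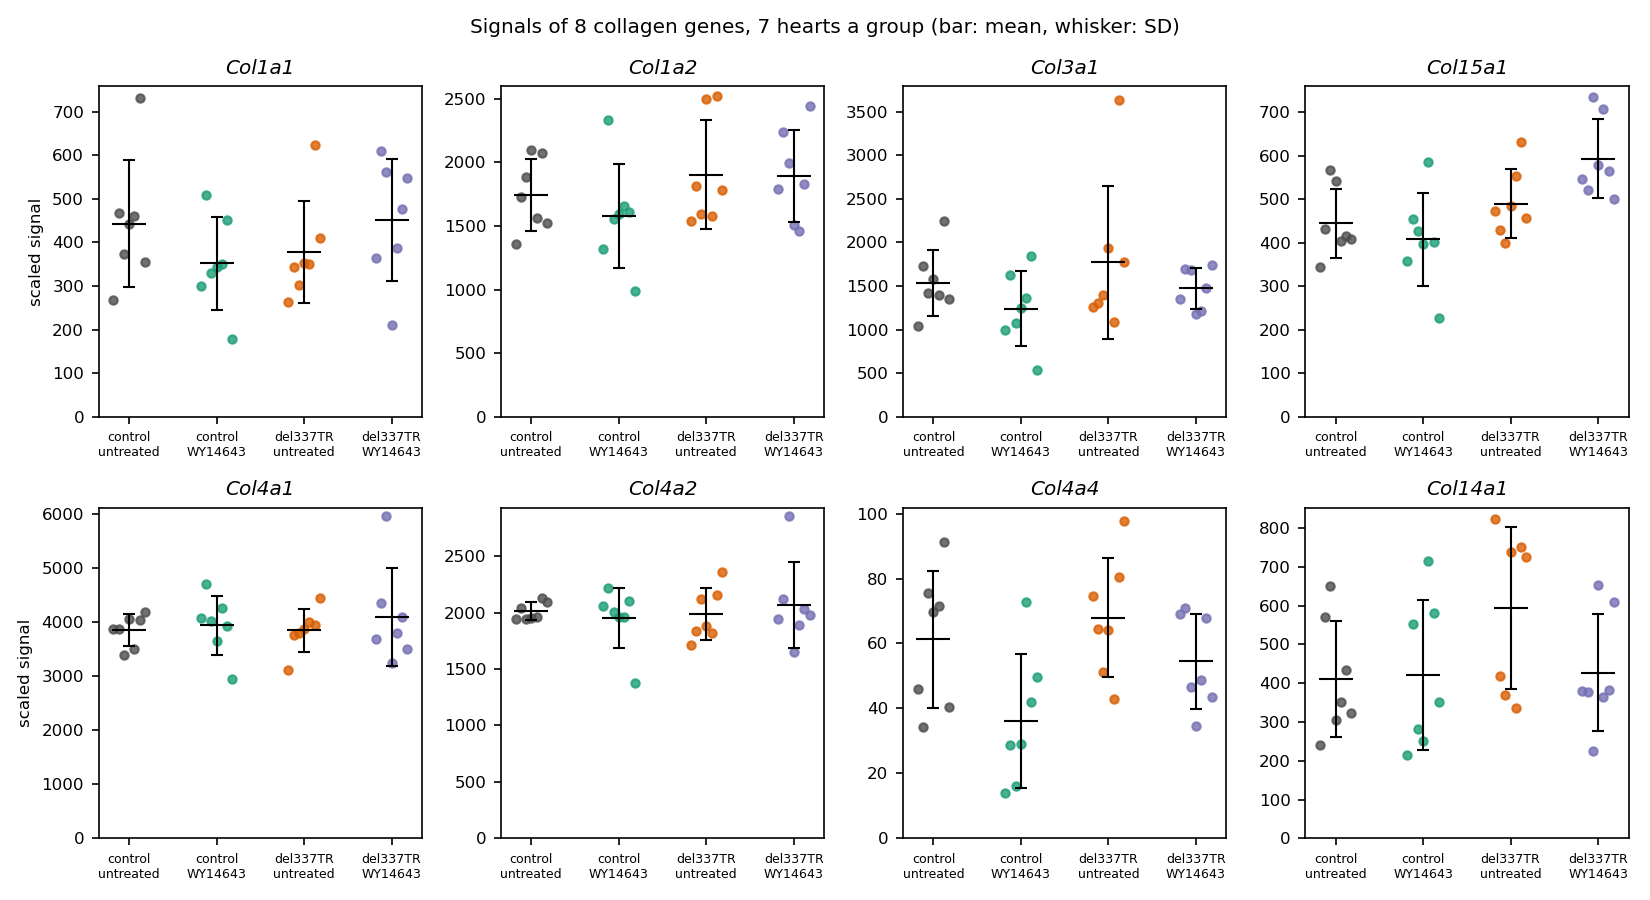
Scaled signal of 8 collagen genes in each heart, with 7 hearts a group, the group mean (bar) and SD (whisker); every axis starts at 0. Groups overlap for all 8 genes, Col4a1 and Col4a2 are narrow apart from single hearts, and Col15a1 is highest in del337TR on WY14643, where the lowest heart is at 499.

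Col4a1 and Col4a2 had the smallest spread within groups of the 15 bright collagens. Col4a1, which with Col4a2 makes the common type IV network, had signals from 3392 to 4195 (median 3873) in untreated controls, from 2943 to 4711 (median 4019) in controls on WY14643, from 3112 to 4451 (median 3879) in untreated del337TR hearts and from 3246 to 5972 (median 3809) in del337TR hearts on WY14643. Group means were 3849 ± 296, 3945 ± 548, 3852 ± 398 and 4096 ± 905 (SD, n = 7) in the same order. The means lay within the spread of each group, and replicate 3 of the del337TR hearts on WY14643 was highest. Col4a2 had signals from 1944 to 2134 (median 1963) in untreated controls, from 1378 to 2215 (median 2004) in controls on WY14643, from 1716 to 2362 (median 1881) in untreated del337TR hearts and from 1654 to 2858 (median 1979) in del337TR hearts on WY14643. The same heart was highest, and replicate 7 of the controls on WY14643 was lowest. Between strains under WY14643 the log2 differences were 0.041 ± 0.12 for Col4a1 and 0.0778 ± 0.11 for Col4a2, and for WY14643 in controls 0.0265 ± 0.12 and -0.0544 ± 0.11. Col4a5, a chain also found around smooth muscle and in kidney, gave 0.20 ± 0.13 and 0.0676 ± 0.13.

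Across the bright genes the residual SD within groups was 0.19 to 0.24 on the log2 scale for type IV, 0.26 to 0.47 for fibrillar and 0.24 to 0.57 for other collagens. In the mean log2 signal of the bright genes of a class, the SD between hearts of a group was 0.22 to 0.36 for the 6 fibrillar genes. It was 0.07 to 0.20 for the 3 type IV genes and 0.11 to 0.35 for the 6 others. The type IV mean covers fewer genes and rests mainly on brighter probe sets, so the spread of the classes is given without a test. Second probe sets of Col4a1 and Col4a5, with mean signals of 1605 and 514, had r of 0.51 and 0.40 to the first over arrays.

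**Figure D3:**
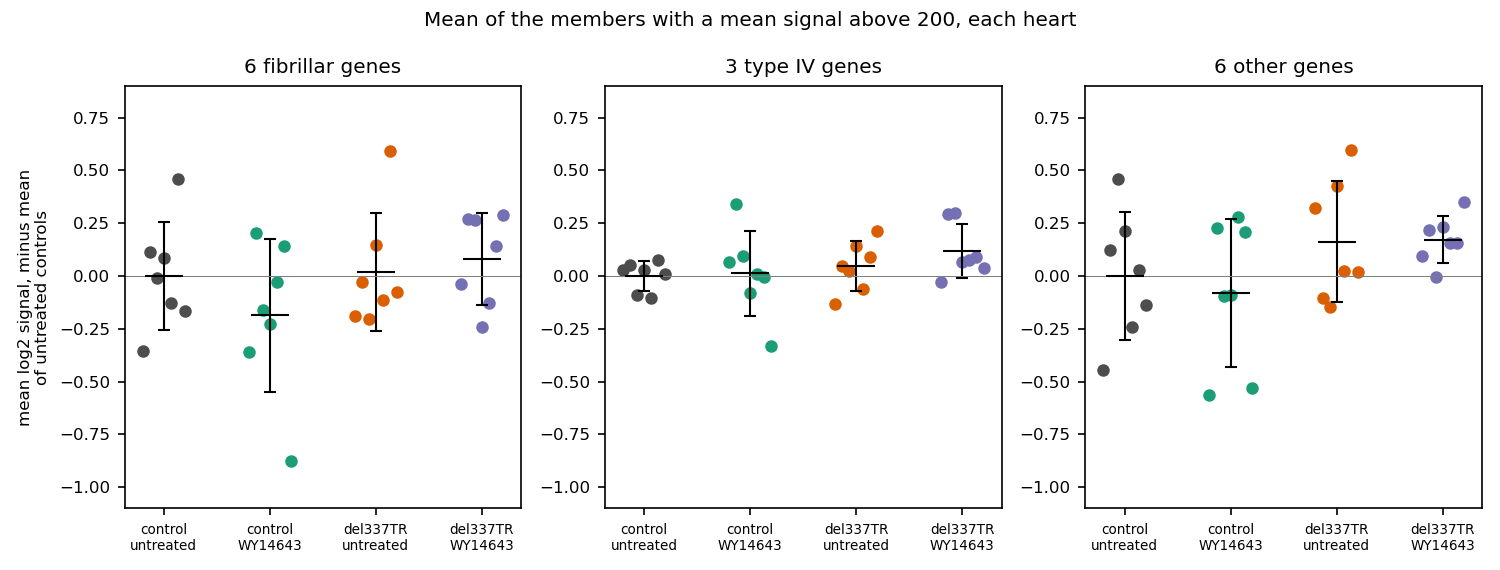
Mean log2 signal of the bright fibrillar, type IV and other collagens in each heart, set against the mean of the untreated controls, with group means (bars) and SD (whiskers). Replicate 7 of the controls on WY14643 is the lowest heart for fibrillar and type IV genes, and the groups overlap in each panel.

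The dimmer type IV genes held the lowest unadjusted p of the class. Col4a4, which joins Col4a3 and Col4a5 in the network of the kidney filter, had signals from 34.4 to 91.4 (median 69.8) in untreated controls, from 14 to 72.8 (median 29.2) in controls on WY14643, from 42.9 to 97.7 (median 64.4) in untreated del337TR hearts and from 34.6 to 70.8 (median 48.9) in del337TR hearts on WY14643. The controls on WY14643 held the 3 lowest hearts, at 14, 16.2 and 28.8, and also 1 heart at 72.8. The log2 difference for WY14643 in controls was -0.89 ± 0.30 (unadjusted p = 0.00651, limma adjusted p = 0.698), and between strains under WY14643 it was 0.76 ± 0.30 (limma adjusted p 0.473). Both use the controls on WY14643. Averaged over strains, WY14643 gave -0.61 ± 0.21, and averaged over treatments the strains gave 0.47 ± 0.21. The gene has 3 probe sets, of which the dimmer ones had r of 0.37 and 0.18 to the first over arrays. On the mean of the 3 the difference was -0.19 for WY14643 in controls and 0.20 between strains under WY14643.

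Col4a3, the chain that pairs with Col4a4, had means of 136 ± 23.9 in untreated controls and 98.7 ± 27.2 in controls on WY14643 (SD, n = 7), a log2 difference of -0.49 ± 0.22 (limma adjusted p 0.735). In del337TR on WY14643 the mean was 108 ± 40.1, which gave 0.0646 ± 0.22 between strains. This sign turned with quantile normalization, centring, an atrial covariate and the mean of probe sets. Col4a6 was the only type IV gene lower in del337TR than in controls under WY14643, at -0.29 ± 0.34. Its lowest heart was at 25.9. The difference was 0.034 without that heart, replicate 4 of the del337TR hearts on WY14643, and 0.17 on the mean of its probe sets.

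Col15a1 had the smallest unadjusted p of the collagens between strains under WY14643. It encodes type XV, found at the outer face of the basement membranes of muscle and capillaries, and loss of it is known to harm the heart of mice. Its signals ran from 343 to 566 (median 414) in untreated controls, from 228 to 584 (median 402) in controls on WY14643, from 399.7 to 631 (median 473) in untreated del337TR hearts and from 499 to 734 (median 564) in del337TR hearts on WY14643. All 7 del337TR hearts on WY14643 exceeded 6 of the 7 controls on WY14643, whose highest heart stood at 584. The log2 difference was 0.58 ± 0.16 (ratio 1.49, unadjusted p = 0.00107, limma adjusted p = 0.403). It ran from 0.44 to 0.67 over 41 alternatives, with adjusted p from 0.229 to 0.644. Averaged over treatments the strains differed by 0.36 ± 0.11 (limma adjusted p 0.537), and the difference for WY14643 in controls was -0.15 ± 0.16.

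Type VI collagen forms beaded filaments that tie cells to the matrix. Between strains under WY14643 its bright genes gave 0.22 ± 0.14 (Col6a1), 0.26 ± 0.24 (Col6a2) and 0.11 ± 0.13 (Col6a3). Col8a1, a chain of the vessel wall collagen type VIII, gave 0.27 ± 0.19. Col6a2 varied most of these, with signals from 417 to 1055 among the controls on WY14643, and gave 0.12 without the lowest of them, replicate 1. In controls WY14643 gave -0.0414 ± 0.14 (Col6a1), -0.13 ± 0.24 (Col6a2), -0.0483 ± 0.13 (Col6a3) and -0.0936 ± 0.19 for Col8a1. None of the adjusted p of these genes in either comparison was under 0.05.

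Low unadjusted p values among the other collagens came mainly from dim genes. Col7a1, the anchoring fibril collagen of skin, gave 0.44 ± 0.18 for WY14643 in del337TR, 0.45 ± 0.18 between strains under WY14643 and 0.56 ± 0.26 for the difference of these effects between strains. Its means were 67.7 ± 8.26 in controls and 95.4 ± 30 in del337TR on WY14643. Col9a1, a cartilage collagen, gave 0.65 ± 0.31 and Col6a4, another type VI chain, 0.57 ± 0.28 for WY14643 in del337TR. Their differences of effects were 0.99 ± 0.44 and 0.82 ± 0.39, or 0.60 and 0.22 on the mean of their probe sets. The lowest limma adjusted p among these values was 0.485, for Col7a1.

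Col23a1, a transmembrane collagen, gave 0.52 ± 0.21 between strains under WY14643 and 0.71 ± 0.29 for the difference of effects. On the mean of its 3 probe sets both turned, to -0.082 and -0.0687. Col17a1, a collagen of epithelial attachment, had signals from 1.8 to 16.6 over all hearts, at the dim end of the array, with 0.82 ± 0.37 between untreated strains and 0.63 ± 0.26 averaged over treatments. Col24a1, a fibrillar collagen, ran from 0.4 to 30.1 and gave 1.95 ± 0.83 between strains under WY14643 and 1.54 ± 0.58 averaged over treatments. On the scale of log2 of the value plus 16, which damps dim signals, Col24a1 gave 0.57 and 0.43, and Col17a1 0.19 and 0.14. Beyond the genes named by rule, Col11a1 (0.44 ± 0.20) and Col26a1 (0.95 ± 0.43) between strains under WY14643 and Col12a1 (0.44 ± 0.21) averaged over treatments completed the values at an unadjusted p under 0.05. On the mean of probe sets Col11a1 turned to -0.12 and Col12a1 was at 0.048, and Col26a1 was at 0.44 with 16 added before the log2. The 18 genes outside that rule had mean signals from 5.72 to 185.

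Col14a1, which encodes the fibril-associated type XIV, had the widest spread of the bright genes, with a residual SD of 0.57 on the log2 scale. Its signals ran from 242 to 650.2 (median 353) in untreated controls, from 216 to 715 (median 352) in controls on WY14643, from 337 to 823 (median 725) in untreated del337TR hearts and from 224 to 653 (median 380) in del337TR hearts on WY14643. High and low hearts occurred in every group, and the strains under WY14643 differed by 0.0747 ± 0.30. The labels do not give sex. Xist, transcribed from the inactive X chromosome, was above the Y-linked Eif2s3y on 10 arrays and below it on 18. On the 10 Xist was at least 697 and Eif2s3y at most 33.2, and on the 18 Xist was at most 194 and Eif2s3y at least 495. Col14a1 was at 656 ± 132 (SD, n = 10) on the former and 357 ± 105 (SD, n = 18) on the latter. With this split as a term beside the 4 groups, the log2 difference was 0.89 ± 0.16 with a limma adjusted p of 0.00871. With this term in the fit the strains under WY14643 differed by 0.33 in Col14a1, where the arrays with Xist above Eif2s3y numbered 3 of 7 in controls and 1 of 7 in del337TR. Col14a1 was the only collagen among the 35 probe sets, or 0.0777%, called in this comparison, which was added after the signals had been seen. With the replicate number as a block the adjusted p was 0.072. At an unadjusted p under 0.05, 3 collagens were found, Col14a1, Col6a3 and Col7a1, or 7.14% against 4.62% of genes.

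**Figure D4:**
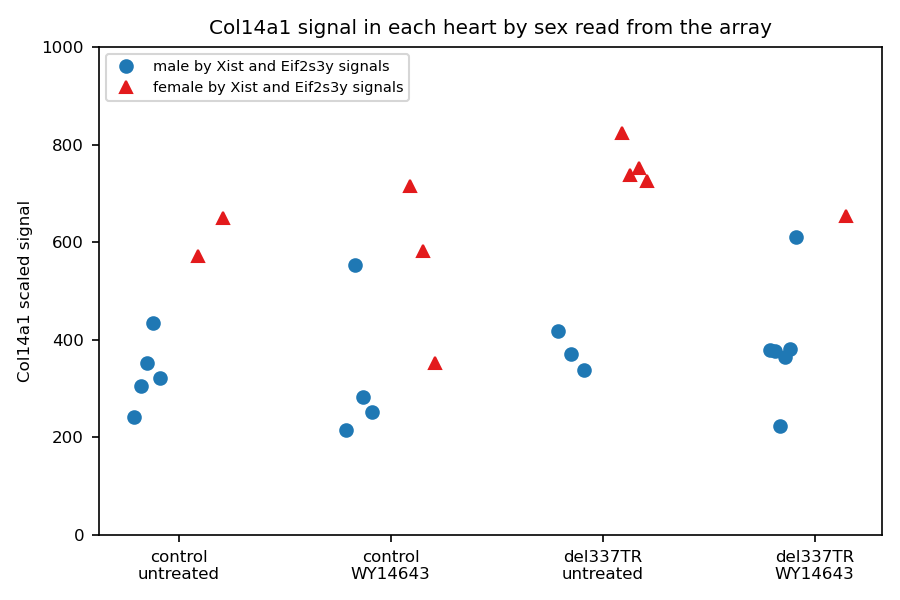
Scaled Col14a1 signal in each of 28 hearts by group, with triangles for the 10 arrays with Xist above Eif2s3y and circles for the other 18. In the untreated groups all triangles lie above all circles, in controls on WY14643 a triangle at 352 lies below a circle at 553, and in del337TR on WY14643 the only triangle is at 653 and the highest circle at 610.4.

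Chains of types I, V, VI and VIII and the Col4a1 and Col4a2 chains of type IV varied together from heart to heart. Deviations of log2 signals from the group means were correlated over 28 hearts for 12 pairs of genes, with permutation within groups (100000 resamples) and adjustment over the 12. Pairs of other genes were not examined, so whether such values of r are particular to collagens was not tested. Col4a1 and Col4a2, whose windows overlap, had Pearson's r = 0.89 and Spearman's rho = 0.70, with permutation p of 1e-05, the smallest that the resamples can give, and 0.0001, adjusted to 3e-05 and 0.0003. Without the 2 hearts farthest from the median, replicate 7 of the controls and replicate 3 of the del337TR hearts on WY14643, r was 0.78. Deviations of a second Col4a1 probe set, with a mean signal of 1605, had r = 0.51 to those of the first. Col1a1 and Col3a1, chains of different types, had r = 0.85 and rho = 0.86 (permutation p of 1e-05 for both, adjusted 3e-05 and 4e-05) and 0.86 without 2 hearts. In each of the 4 groups r was 0.87 or higher for this pair. Second probe sets had r = 0.84 to the first for Col1a1 and 0.85 for Col3a1.

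**Figure D5:**
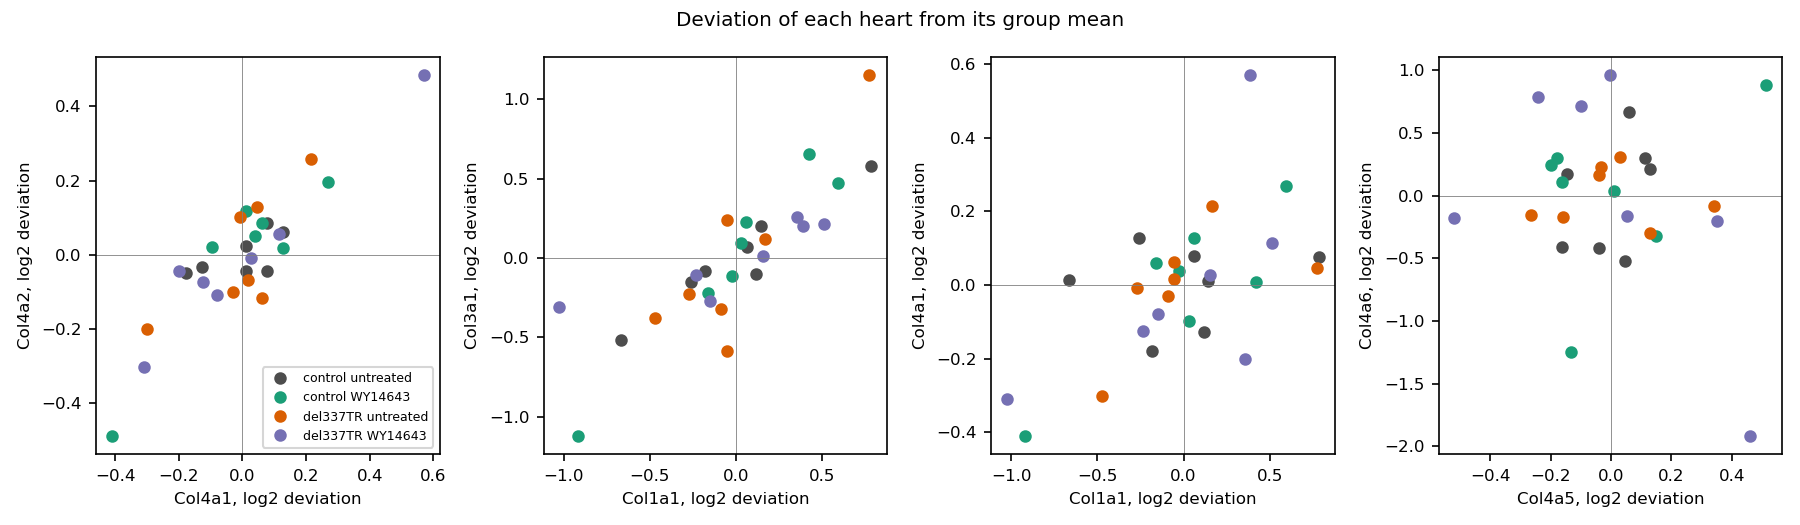
Deviation of each heart from its group mean in log2 signal for 4 gene pairs, each point a heart coloured by group. Col4a1 with Col4a2 (r = 0.89) and Col1a1 with Col3a1 (r = 0.85) lie along a line, Col1a1 with Col4a1 less so (r = 0.60), and Col4a5 with Col4a6 show no line (r = -0.15).

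Col1a1 and Col1a2 gave r = 0.79, Col6a1 and Col6a3 0.77, Col6a1 and Col6a2 0.71, Col5a1 and Col5a2 0.70 and Col8a1 and Col8a2 0.51, with permutation p from 1e-05 to 0.00398, adjusted 3e-05 to 0.00597. Spearman's rho for these 5 pairs was 0.50 to 0.76, with adjusted permutation p from 4e-05 to 0.0166, and r without 2 hearts was 0.39 to 0.82. Within the del337TR hearts on WY14643, Col6a1 and Col6a2 had r = -0.16 and Col5a1 and Col5a2 0.15. Within the untreated controls Col8a1 and Col8a2 had r = 0.13, or -0.011 with each array centred on its median. A fibrillar gene was set against a type IV gene in 2 pairs, and their difference from the other pairs was not tested. Col1a1 and Col4a1 had r = 0.60 and rho = 0.54 (permutation p 0.00309 and 0.0063, adjusted 0.0053 and 0.0108), or r = 0.41 without 2 hearts, and 0.14 within the untreated controls. Col3a1 and Col4a1 had r = 0.46 and rho = 0.41 (permutation p 0.0112 and 0.0337, adjusted 0.0149 and 0.0449), with an adjusted p of 0.069 for rho when each array was centred on its median, and r = 0.37 without 2 hearts. With that centring r within the untreated controls was -0.54 for Col3a1 and Col4a1, -0.52 for Col1a1 and Col4a1, and -0.00605 for Col4a1 and Col4a2, and no other pair changed its call with centring, quantile normalization or log2 of the value plus 16. The head-to-head pairs Col4a3 with Col4a4 (r = 0.21, rho = 0.26, adjusted permutation p 0.31 and 0.236) and Col4a5 with Col4a6 (r = -0.15, rho = -0.0898, adjusted permutation p 0.633 and 0.677), added after the signals had been seen, did not pass. Of these genes Col4a3, Col4a4 and Col4a6 were dim, at mean signals of 114, 55.0 and 130. Their other probe sets had r of -0.32 (Col4a3), 0.37 and 0.18 (Col4a4) and 0.18 (Col4a6) to the first. The part of noise in the probe sets in these r was not tested. Col15a1 and Col18a1, both multiplexins, had r = 0.087 and rho = 0.13 (adjusted permutation p 0.676 and 0.571), and r = 0.36 without 2 hearts.

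Genes that make, trim and hold collagens gave no call in any comparison. Of the enzymes and chaperones of synthesis, 11 of 19 stood higher in del337TR than in controls under WY14643, with a median log2 difference of 0.0212. The lowest unadjusted p there was that of Tmem38b, an ion channel of the endoplasmic reticulum, at -0.40 ± 0.15. Of crosslinking and processing genes 7 of 11 were higher (median 0.12), of degradation genes 11 of 14 (0.16), and of receptors 7 of 9 (0.0935). Ctsk, a protease that cuts collagen, gave 0.58 ± 0.24, and Timp2, an inhibitor of matrix proteases, 0.26 ± 0.12. Timp4, the inhibitor that is abundant in heart, gave -1.19 ± 0.47 for WY14643 in controls.

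Partners of type IV in the basement membrane were higher for 10 of 12 (median 0.14). The laminin chains Lamb1 and Lamc1 gave 0.46 ± 0.13 and 0.30 ± 0.13, and Agrn, the proteoglycan agrin, -0.79 ± 0.38. Of the matrix genes associated with fibrils 12 of 15 were higher (median 0.11), among them Vcan at 0.42 ± 0.16 and Tnxb at 0.33 ± 0.14. The lowest limma adjusted p among these genes was 0.403, for Lamb1.

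Fibroblast markers stood on the same side as the collagens between strains under WY14643, where all 9 were higher in del337TR with a median log2 difference of 0.15 and Tbx20 at 0.39 ± 0.12 (limma adjusted p 0.405). For WY14643 in controls 4 of 9 were higher, with a median of -0.0884. Without WY14643, 8 of 9 fibroblast markers were higher in del337TR, with a median of 0.14, where 25 of 42 collagens were. Averaged over treatments 9 of 9 were higher. Of these 4, or 44.4%, were at an unadjusted limma p under 0.05, against 8.32% of all genes. Among genes with a mean signal above 200, which all 9 markers exceeded, the share was 11.4%. The markers were read in the same hearts, so they are not independent of each other. The summed signal of the fibroblast markers ran from 27322 to 35243 (median 28472) in controls on WY14643 and from 29935 to 37652 (median 34199) in del337TR on WY14643. In the controls on WY14643 it was at most 28472 in replicates 1, 4, 6 and 7 and at least 31254 in the others. It ran from 27308 to 35814 (median 29747) in untreated controls, with replicate 7 lowest, and from 31484 to 35585 (median 34000) in untreated del337TR. Dcn and Gsn, at mean signals of 11816 and 11938 where the other fibroblast markers were at 239 to 2906, made up most of these sums. No marker of the list was at 0, and the lowest signal was 173, for Ddr2. The 6 heart muscle markers were at 4519 or higher in every heart. Endothelial markers were higher for 5 of 7, with sums of 10300.1 to 14069 in controls and 10858 to 17202 in del337TR on WY14643. Fabp4, at a mean signal of 9271 where the other endothelial markers were at 208 to 710, made up most of these sums. In the same comparison 2 of 5 markers of activated fibroblasts, 0 of 6 of smooth muscle and pericytes, 5 of 6 of leukocytes and 3 of 6 of heart muscle were higher. So were 3 of 3 atrial, 0 of 3 adipocyte, 2 of 6 cartilage and valve, and 0 of 3 epicardial markers. The summed atrial markers ran from 116 to 33331 over the 28 hearts, and with their score as a covariate 36 of 42 collagens and 15 of 15 bright ones were higher in del337TR under WY14643, beside 15 of 42 and 7 of 15 without WY14643. The part of these cells in the collagen signals was not tested.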

How the data were processed

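The authors deposited 1 intensity value per probe set and array for 28 hearts. The submitters' processing notes name RMA, but the values are linear and the trimmed mean (2% at each end) is equal on all arrays, so they were treated as scaled signals, although log2 values had been assumed in the design. The software behind the scaling is not given in the sources used here. Signals were floored at 0.1, which touched 3 values, and log2 transformed. Of 45101 probe sets, 64 array controls were left out. The 4 group means were fitted with limma 3.58.1 (eBayes without trend, R 4.3.3) to all 28 arrays with 24 residual degrees of freedom and no covariate, and p values were two-sided and adjusted over 45037 probe sets. None of 378 array pairs was identical. Gene symbols came from the platform annotation, which can be old. Correlations, windows and counts used Python 3.11.15. The fit was tested on simulated data. The members, the gene lists and the alternatives were chosen with earlier results of these data known. The naming rule took the 6 brightest genes of each class and, per comparison, up to 4 members at an unadjusted p under 0.05, and of the companion lists genes of the smallest p. Col26a1, Col11a1 and Col12a1 were named beside it to complete the counts. The alternatives were log2 of the value plus 16, a filter at the 40th percentile, limma's array weights, its trend and robust options, centring, quantile normalization, a block for the replicate number, a fit to the compared groups alone, sex, atrial score and a principal component as covariates, the mean of probe sets, type XV and XVIII chains in the basement membrane class, and leaving out arrays. Fkbp10, Loxl2, Adamts2, Adamts14, Mmp15, Itga11, Fbn1 and Plin1 of the lists had no probe set of 1 symbol and were not analysed here.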

Additional observations from a re-analysis of the deposited data

Results flagged for a closer look

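Among the 24 named collagens in 4 groups, 10 of 96 sets of 7 hearts held 1 heart far from the others, by a gap of more than 0.568 of the group's range. The gaps were taken on the linear signals and were not repeated on the log2 scale. The rate of about 1 in 20 by chance holds for normally spread values, which linear signals need not be. The count of 10 is therefore not read against that rate. Replicate 6 of the untreated del337TR hearts was the high one for Col3a1 (gap 0.669 of the range, 3640 against 1935 for the next), Col5a1 (0.616, 689 against 508) and Col1a1 (0.594, 624 against 409.6). Replicate 3 of the del337TR hearts on WY14643 was high for Col4a1 (0.593, 5972 against 4355) and Col4a2 (0.609, 2858 against 2125). Replicate 7 of the controls on WY14643 was low for Col4a2 (0.696, 1378 against 1961). In the same group replicate 2 was high for Col4a5 (0.572, 1297 against 1007) and replicate 6 for Col6a3 (0.598, 631 against 477). The dim genes Col24a1 (0.59, 25.1 against 11.7, replicate 1) and Col17a1 (0.722, 16.6 against 7.5, replicate 3) each had 1 high untreated del337TR heart. In del337TR the flagged hearts of fibrillar and type IV genes were thus in different groups. Replicate 3 on WY14643 was also among the higher hearts in the mean log2 signal of bright fibrillar genes, at 9.46. Its group ran from 8.95 to 9.49. The cause was not tested.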

How the results depend on the processing

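The count of called collagens was 0 in the 7 comparisons under every alternative and with each array left out. The replicate number as a block also gave 0 called probe sets in each comparison, with 9 collagens at an unadjusted p under 0.05 between strains under WY14643 in place of 7. Deviations of 42 same-numbered pairs of arrays correlated at -0.21 to 0.27 (median 0.037), with 12 above 0.1. Arrays of different numbers were not set beside them, so whether the numbers pair the hearts was not tested. Only the Col14a1 difference by sex lost its call with the replicate block (0.88, adjusted p 0.072). Over the 28 single arrays left out it ran from 0.84 to 0.97 with adjusted p from 0.000535 to 0.0336. The type IV median for WY14643 averaged over strains became 0.014 with Col15a1 and Col18a1 added. The median of the other collagens for the difference of effects ran from 0.0596 to 0.29 with arrays left out, the last without untreated control replicate 1. The signs of some genes turned, on the mean of probe sets also for values far from 0, and the cause was not tested. For WY14643 in controls, quantile normalization gave Col14a1 0.0255 and Col4a1 -0.0528, and centring gave Col14a1 0.0436, Col4a2 0.00621, Col6a1 0.0192 and Col6a3 0.0123. The mean of probe sets gave Col4a5 -0.0317. Without the least-like arrays, chosen after seeing the data, Col4a2 was at 0.0374, Col4a6 at 0.046 and Col6a1 at 0.0297. Between strains under WY14643, Col4a3 was at -0.00926 with quantile normalization, -0.016 with centring, -0.0074 with the atrial score and -0.16 on the mean of probe sets. Centring gave Col14a1 -0.00587, Col4a1 -0.0396 and Col4a2 -0.00278. The mean of probe sets gave Col11a1 -0.12, Col14a1 -0.0507, Col23a1 -0.082 (-0.0687 for the difference of effects) and Col4a6 0.17, and without the least-like arrays Col14a1 was at -0.0453. With single arrays left out, signs turned for WY14643 in controls in Col14a1 (-0.17 to 0.12), Col4a1 (-0.0184 to 0.0947), Col4a2 (-0.0869 to 0.0272), Col4a5 (-0.0182 to 0.10), Col4a6 (-0.24 to 0.11), Col6a1 (-0.12 to 0.0276), Col6a2 (-0.24 to 0.0116) and Col6a3 (-0.14 to 0.0273). They turned between strains under WY14643 in Col14a1 (-0.064 to 0.22), Col4a1 (-0.0541 to 0.0926), Col4a2 (-0.00382 to 0.13), Col4a3 (-0.0409 to 0.24) and Col4a6 (-0.49 to 0.034).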

Other observations

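Col14a1 was read by 3 probe sets, and the split of arrays by Xist and Eif2s3y was examined on each. The second, with a mean signal of 227 and r = 0.85 to the first over arrays, was at 311 on the 10 arrays with high Xist and 181 on the other 18, a log2 difference of 0.76 ± 0.14 (limma adjusted p 0.0122). The third was dim, with a mean signal of 5.45, and gave 0.38 ± 0.17 (limma adjusted p 0.952). Among the untreated del337TR hearts the 4 with high Xist ran from 725 to 823 and the 3 others from 337 to 418 on the first probe set. In the untreated controls the 2 ran from 572 to 650.2 and the 5 others from 242 to 434. The arrays with high Xist numbered 2, 4, 3 and 1 of 7 in untreated controls, untreated del337TR, controls on WY14643 and del337TR on WY14643, so strain and treatment groups differ in this respect. With the split as a covariate, 37 of 42 collagens were higher in del337TR under WY14643, the same count as without it.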
